A study of Mus musculus with 8 samples.

Results

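ATP-dependent chromatin remodellers use the energy of ATP to slide, evict or exchange nucleosomes. In embryonic stem cells the SWI/SNF (BAF) complex is built around the ATPase Smarca4 and is known as esBAF, while the NuRD complex joins the ATPase Chd4 to histone deacetylases and is known for tuning pluripotency genes so that differentiation can begin. The ISWI ATPases space nucleosomes, the INO80, SRCAP and TIP60-p400 complexes exchange or acetylate histone variants, and the subunits that paralogues can replace differ between stem cells and differentiated cells. The transcripts described here are those of 45 such genes in mouse embryonic stem (mES) cells with and without Trim71, an RNA-binding TRIM-NHL protein that represses the mRNAs it binds. The list takes genes by name and sets no threshold on a measured value, and 44 of the 45 were found among the 13558 transcripts of the table. Srcap, the ATPase of the SRCAP complex, was not analysed here.

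Poly(A) RNA from 8 libraries was compared, 4 with the label genotype Trim-/- (KO, Trim71 deficient) and 4 with Trimfl/fl (WT, conditional allele not recombined). The cells were male C57BL/6 mES cells, and by the study's methods every line carried the floxed Trim71 allele and the Rosa26-CreERT2 allele, which expresses an inducible Cre recombinase from a ubiquitous promoter. KO cells had been given 500 nM 4-hydroxytamoxifen for 2 days per the labels, and were kept for 7 days or longer afterwards. By the study's methods, control cells were given DMSO, the solvent, instead. These methods also state a lower dose and a shorter later culture. Either way, loss of Trim71 and earlier Cre activity cannot be told apart. Cre removes the last exon of Trim71, and the remaining exons can still be transcribed. All cells grew in medium with serum and LIF and passed a magnetic sort for SSEA-1, a surface marker of mES cells. The libraries came from 2 clones. Clone E3 gave KO 1, 2 and 3 and WT 2 and 3, and clone 1 gave KO 4 and WT 1 and 4, so that clone 1 has a single KO library. The labels also number a day. Days 3, 4 and 5 each hold 1 KO and 1 WT library of the same clone, namely the libraries numbered 2, 3 and 4 in both groups. What the day counts, and whether libraries came from separate cultures, is not stated, so the p-values measure only the spread between these libraries.

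Trim71 itself had normalised read counts of 500.3, 793, 733 and 247 in KO libraries 1 to 4 and 2782, 2736, 1988 and 2584 in WT libraries 1 to 4. The order of the KO libraries rests on the authors' correction for clone. As recovered from the table, they had 223.1, 515.7, 455.8 and 524.1 before it. The groups did not overlap, the log2 fold change −2.39 ± 0.35 (SE) passed an unadjusted p of 0.05 but no adjusted one (limma, adjusted p = 0.294, exact permutation p = 0.0286), and the KO libraries kept reads of this gene. ES cell markers such as Pou5f1 and Nanog were abundant in every library, with a summed normalised read count over 10 markers of 76303 to 104162 in KO and 67752 to 90320 in WT. The summed level over the 6 measured of 10 fibroblast markers was 177 to 310 in KO and 145 to 236 in WT, and over 8 neural markers it was 2118 to 2442 in KO and 2207 to 2738 in WT. For endoderm, 6 of 8 markers summed to 259 to 570 in KO and 68 to 422 in WT, and for mesoderm 4 of 7 summed to 177 to 230 in KO and 120 to 199 in WT. The libraries held 6933186 to 25750053 reads in genes, as recovered from the table, and 41 of the 44 remodeller genes had 117 reads or more in every library. Smarca2, Smarcd3 and Smarca1 were the remaining 3, with 6 to 111 reads. In bulk RNA, fewer cells of a type and less RNA per cell cannot be told apart.

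Most remodeller transcripts lay close to their wild-type level: 25 of the 44 had a log2 fold change under 0.2 in size. Of the 44 genes, none rose and 3 fell at an unadjusted p under 0.05 in the limma fit with clone as a term, namely Chd7, Arid2 and Bptf, a share of 6.82% against 4.46% of all transcripts that were lower in KO by the same rule (and 4.62% that were higher). None was past the criterion of p under 0.05 together with a change of 1.5-fold or more, which 4.25% of all transcripts passed. After Benjamini-Hochberg adjustment over all transcripts, no remodeller gene and no transcript at all passed an adjusted p of 0.05 (0%), with a smallest adjusted p of 0.475 among the remodeller genes and 0.275 over the table (limma). At an unadjusted p under 0.05, limma called 1232 transcripts of the table. The median log2 fold change of the 44 genes was −0.12 and that of all transcripts −0.0004, and 29 of the 44 were below 0, against 6784 of the 13558 transcripts. The 95% interval lay within 1.5-fold in both directions for 26 of the 44 genes and within a log2 change of 1 for 39. The remaining genes therefore had intervals that include changes beyond these sizes.

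**Figure D1:**
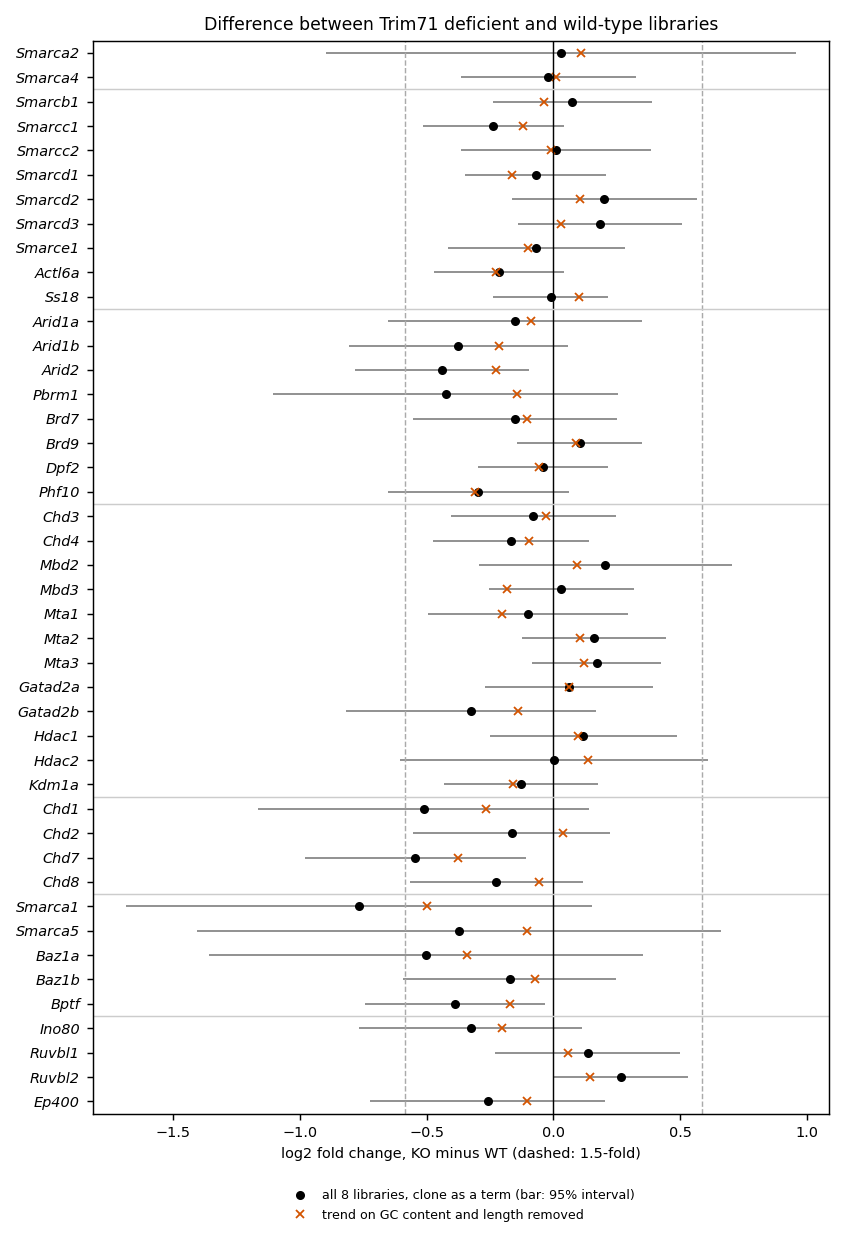
Log2 fold change of each remodeller gene, KO minus WT, with its 95% interval (black, limma with clone as a term) and after removal of each library's trend on GC content and length (orange crosses). Horizontal lines part the complexes, and of the 44 black intervals only those of Arid2, Chd7 and Bptf exclude 0.

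A second, simpler reading asked for which genes every KO library lay on the same side of every WT library. Of the 44 genes, 6 were lower in every KO library than in any WT library (13.6%, against 4.62% of all transcripts), and Ruvbl2 alone was higher (2.27%, against 5.48%). The 6 lower genes were Chd7, Arid2, Bptf, Arid1b, Chd1 and Actl6a. Of these, Bptf and Actl6a overlapped between the groups before the authors' correction for clone. Within days 3, 4 and 5, 18 of the 44 genes were lower in KO on all 3 days (40.9%, against 25.5% of all transcripts) and 9 were higher on all 3 (20.5%, against 24.6%). Where the day entered the fit as a block, which leaves 6 libraries, Brd7, Chd7, Smarca1 and Baz1a fell (9.09%, against 9.26% of all transcripts) and Ruvbl2 rose (2.27%, against 9.92%), all at an unadjusted p only. That fit also leaves out KO library 1 and WT library 1. In the same 6 libraries without the block, Arid2 and Phf10 fell and Ruvbl2 rose (4.55%, against 4.57% of all transcripts, and 2.27%, against 6.0%), so that the block itself took the call on Arid2 away, whereas the call on Bptf was already lost and that on Ruvbl2 already present in the 6 libraries. Under the block, Smarca1 and Baz1a passed the 1.5-fold criterion as well (4.55%, against 7.49% of all transcripts).

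KO library 3 stood apart from the other libraries in base composition, and part of the spread in the remodeller genes lay along base composition and transcript length. In this library the deviation of the 44 genes from their own means correlated with the GC content of the transcript at r = 0.80 (0.63 over all 13461 transcripts with a known sequence), whereas r was between −0.67 and 0.30 in the other 7. The 6 genes with a GC content under 45% had a median deviation of −1.06 (log2) in KO library 3, and the 11 genes over 55% had 0.20. With log2 transcript length the deviations of the 44 genes correlated at −0.48, −0.07, −0.30 and −0.20 in KO libraries 1 to 4. In WT libraries 1 to 4 the values were 0.37, 0.50, 0.71 and 0.07, so KO library 3 did not stand apart in length. Over all transcripts they ran from −0.22 in KO library 1 to 0.18 in WT library 3. Across the 44 genes, the fitted log2 fold change correlated with GC content at 0.64 and with log2 transcript length at −0.65. Over all 13461 transcripts these were 0.30 and −0.23. These are correlations over genes that share the same 8 libraries, and they are given without a test. All 8 remodeller genes with a transcript over 8 kb had a log2 fold change below 0 (median −0.32), and the median of the 735 transcripts of that size in the table was −0.24. For transcripts under 3.5 kb the medians were 0.07 over 19 remodeller genes and 0.06 over 7802 transcripts. Once each library's smooth trend on GC content and length was removed, Phf10 and Smarca1 were the genes called lower (4.55%, against 4.85% of all transcripts) and none was called higher (4.88% of all transcripts). Arid1b and Phf10 were then the genes with every KO library below every WT library (4.55%, against 4.22%), and none lay above (5.09% of all transcripts). Without KO library 3, Arid1b, Arid2 and Chd7 were called lower (6.82%, against 5.82% of all transcripts), no gene was called higher (4.83% of all transcripts), and 31 of the 44 log2 fold changes were below 0 with a median of −0.083. In that set of 7 libraries 9 genes lay below every WT library (20.5%, against 7.94%) and Brd9 and Ruvbl2 lay above (4.55%, against 8.63%). Without it, r between log2 fold change and GC content was 0.31, and r with length was −0.66. What set KO library 3 apart was not tested.

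**Figure D2:**
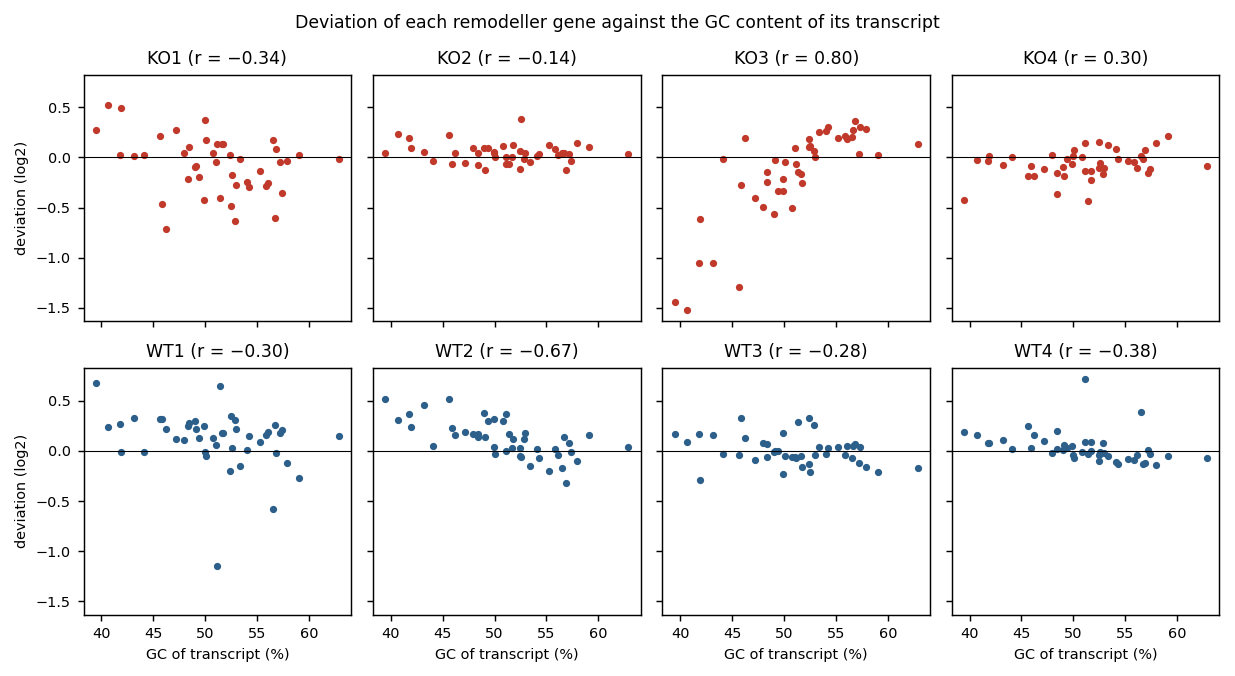
Deviation of each of the 44 remodeller genes from its mean over 8 libraries (y axis, log2) against the GC content of its longest protein-coding transcript (x axis, %), with 1 panel per library. The points climb steeply in KO library 3, where r is 0.80, and lie nearer to 0 in KO library 2, where r is −0.14.

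Among the BAF subunits, the esBAF ATPase was the more abundant in wild-type cells. Per kilobase of transcript, Smarca4, the main ATPase, had 737 ± 54.5 normalised reads in WT (SD, n = 4) and Smarca2, the alternative ATPase of differentiated cells, 11.3 ± 5.38. Counts for Smarca4 were 3814, 4923, 5396 and 4499 in KO libraries 1 to 4 and 5177, 4709, 4526 and 4377 in WT libraries 1 to 4, and the groups overlapped fully (log2 fold change −0.02, 95% interval −0.36 to 0.33). Smarca2 stood at 27.3, 80.2, 58.8 and 102 in WT libraries 1 to 4 against 67.7, 58.9, 58.9 and 68.2 in KO libraries 1 to 4. The spread of Smarca2 lay in the WT group, where library 1 was lowest and library 4 highest. Before the authors' correction for clone, as recovered from the table, WT library 1 had 51.1 and WT library 4 had 125.8, and the value of WT library 1 then lay inside the range of the other WT libraries.

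Of the 9 core and accessory subunits, none was called. Smarcc1, the scaffold subunit typical of esBAF, had 4369, 5203, 4578 and 4525 in KO libraries 1 to 4 and 6028, 5570, 5287 and 5116 in WT libraries 1 to 4, with KO library 2 reaching into the WT range (log2 fold change −0.24 ± 0.12 (SE), adjusted p = 0.591). Its paralogue Smarcc2 had 675, 579.7, 622 and 557 in WT libraries 1 to 4 against 495, 621, 748 and 601 in KO libraries 1 to 4, a log2 fold change of 0.009. Smarcd1, which links the complex to DNA-binding factors, had 1815, 1923, 1920 and 1689 in KO libraries 1 to 4 and 2120, 1981, 1729 and 1887 in WT libraries 1 to 4. These 3 genes overlapped between the groups. Smarcd2, whose log2 fold change of 0.20 was among the 3 highest of the 44, had 2430, 1980, 2601 and 2273 in WT libraries 1 to 4 against 2617, 2269, 3177 and 2606 in KO libraries 1 to 4 (adjusted p = 0.701). Smarcd3, the form typical of muscle, was scarce at 45.4, 48.3, 45.6 and 52.1 in KO libraries 1 to 4 and 37.1, 50.2, 38.5 and 43.1 in WT libraries 1 to 4. Smarcb1, the small core subunit, ranged over 1536 to 1924 in KO and 1463 to 1794 in WT, Smarce1 over 644 to 839.8 and 687 to 870.2, and Ss18 over 2062 to 2145 and 2067 to 2180. Ss18 had the tightest values of this group, with a log2 fold change of −0.01 and a 95% interval of −0.24 to 0.22.

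Actl6a, the actin-related subunit that BAF shares with INO80 and TIP60-p400 and that is linked to the stem and progenitor state, was lower in all 4 KO libraries in the deposited values. Its counts were 3026, 2943, 3151 and 2815 in KO libraries 1 to 4 and 3744, 3543, 3215 and 3353 in WT libraries 1 to 4. The highest KO value, in library 3, lay just under the lowest WT value, also in library 3. With the authors' correction for clone undone, KO libraries 1 to 3 had 3297, 3214 and 3423, above WT library 4 at 3081. The groups then overlapped. Means were 2984 ± 142 in KO and 3464 ± 230.0 in WT (SD, n = 4 each), a drop of 13.9% on the fitted scale (log2 fold change −0.22 ± 0.11 (SE), limma, adjusted p = 0.596). The differences within days were −0.27, −0.03 and −0.25 on days 3, 4 and 5, smallest on day 4. Actl6a lies at chr3:32706298-32726973, plus strand, 14 exons, transcript 2010 bases (GRCm38, the mm10 assembly), and its length is below the median of the table.

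Of the subunits that direct BAF and PBAF to their sites, Arid2 was called, and 7 of 8 had a log2 fold change below 0 (median −0.22, and −0.12 once the trends on GC content and length were removed). Arid2, the ARID subunit that defines PBAF, had 1349, 1784, 1546 and 1761 in KO libraries 1 to 4 and 2321, 2181, 2339 and 1897 in WT libraries 1 to 4. No KO library reached the lowest WT library, the means were 1610 ± 204 in KO and 2185 ± 204 in WT (SD, n = 4 each), and the log2 fold change −0.44 ± 0.14 (SE) passed the unadjusted threshold (limma, adjusted p = 0.475). Within days the log2 differences were −0.29, −0.60 and −0.11. The call on Arid2 was lost without WT library 2 (log2 fold change −0.43) or WT library 3 (−0.38), with the day as a block (−0.33, called at the same value in those 6 libraries without it) and once the trends on GC content and length were removed (−0.23). Arid2 spans chr15:96287518-96404992, plus strand, 21 exons, transcript 8507 bases, with a GC content of 45.9%.

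Arid1b, a mutually exclusive partner of Arid1a in canonical BAF, had 584, 514, 564 and 498 in WT libraries 1 to 4 against 303, 468, 495 and 419.6 in KO libraries 1 to 4. KO library 1 was lowest, and KO library 3 came within 3 counts of the lowest WT library. The log2 fold change −0.38 ± 0.18 (SE) did not pass (adjusted p = 0.589), the 95% interval ran over −0.81 to 0.06, and with the trends removed the groups still did not overlap. The gene lies at chr17:4994332-5347656, plus strand, 20 exons, transcript 11325 bases. Arid1a had 2688, 4198, 4916 and 4019 in KO libraries 1 to 4 and 4863, 4494, 4215 and 3718 in WT libraries 1 to 4, where KO library 1 stood well below the others and the rest overlapped with WT. Brd7, a PBAF bromodomain subunit, had 1308, 1036, 815 and 995 in KO libraries 1 to 4 and 1171, 1229, 1015 and 1160 in WT libraries 1 to 4. Its log2 differences within days were −0.25, −0.32 and −0.22, close to each other, and with the day as a block it fell by 0.26 on the log2 scale, past the unadjusted threshold (adjusted p = 0.254, limma), which it did not pass in the same 6 libraries without the block. Brd9, the bromodomain subunit of non-canonical BAF, had 513, 522, 515 and 506 in WT libraries 1 to 4 against 599.6, 534, 517 and 562 in KO libraries 1 to 4 and the only log2 fold change above 0 in this group (0.10, adjusted p = 0.762).

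Phf10, a PBAF subunit known from dividing progenitors, ranged over 847 to 1178 in KO and 1049 to 1323 in WT. Its log2 fold change was −0.30 (adjusted p = 0.598) on the deposited values and −0.31 (adjusted p = 0.496, limma) with the trends removed, where it passed the unadjusted threshold. It passed on the deposited values as well without KO library 1 (−0.37) or WT library 3 (−0.41), and without KO library 4 the value was −0.13. Pbrm1, the polybromo subunit of PBAF, ranged over 834 to 1979 in KO and 1836 to 2238 in WT, and its lowest value was that of KO library 3 (log2 fold change −0.43, or −0.18 without it). Dpf2, a PHD finger subunit, lay at 1620 to 1897 and 1699 to 1891 (log2 fold change −0.04).

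**Figure D3:**
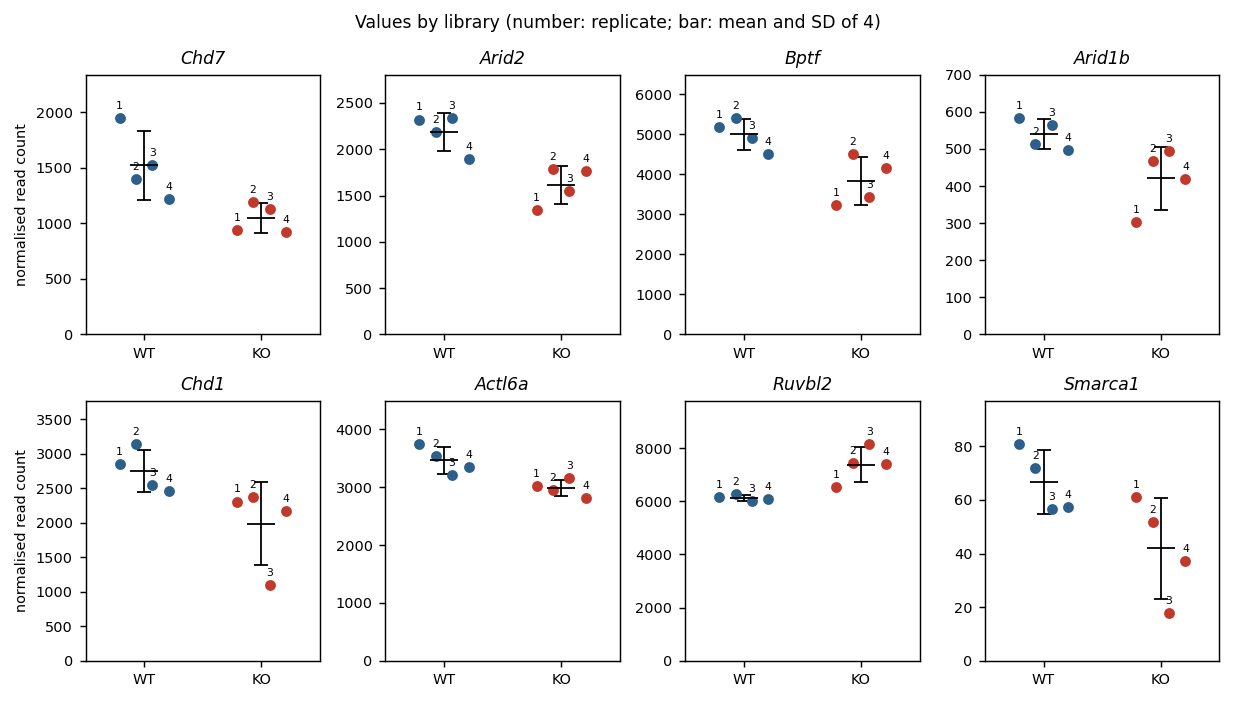
Normalised read counts of 8 remodeller genes in each library, with the replicate number beside each point and the mean and SD of 4 libraries as bars. Chd7, Arid2, Bptf, Arid1b, Chd1 and Actl6a lie lower in every KO library, Ruvbl2 lies higher, and Smarca1 overlaps between the groups.

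The NuRD subunits showed small differences in both directions. None of 12 was called, 7 had a log2 fold change above 0 and 5 below, and the median was 0.02 (−0.008 without KO library 3). Chd4, the ATPase, was among the more abundant remodellers at 1480 ± 136 normalised reads per kilobase in WT (SD, n = 4), with counts of 7737, 9650, 9333 and 8648 in KO libraries 1 to 4 and 10838, 10577, 9076 and 9203 in WT libraries 1 to 4 (log2 fold change −0.17, 95% interval −0.48 to 0.14). The alternative ATPase Chd3 had 627, 535, 569 and 536 in WT libraries 1 to 4 against 462, 559, 624 and 509.8 in KO libraries 1 to 4. Both overlapped between the groups.

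Mbd3, the subunit that gives NuRD its role in pluripotent cells, had 1538, 1592, 1700 and 1465 in KO libraries 1 to 4 and 1719, 1596, 1383 and 1479 in WT libraries 1 to 4, a log2 fold change of 0.03. Mbd2, its paralogue that binds methylated DNA, had 176, 234, 249.9 and 343 in WT libraries 1 to 4 against 296, 271, 301 and 266 in KO libraries 1 to 4. The WT libraries of Mbd2 spread more widely than the KO libraries and enclosed them, so its log2 fold change of 0.20 (adjusted p = 0.767), among the 3 highest, was within the spread. It was 0.07 without WT library 1 and, without WT library 4, 0.35 and past the unadjusted threshold. Mta1 and Mta2 are alternative scaffold subunits. Mta2 had 3109, 3046, 3728 and 3420 in KO libraries 1 to 4 and 2824, 2822, 3218 and 3027 in WT libraries 1 to 4, and Mta1 had 1349, 1161, 1202 and 1141 in WT libraries 1 to 4 against 914, 1138, 1442 and 1081 in KO libraries 1 to 4. Mta3, the remaining MTA form, ranged over 2376 to 2603 in KO and 2040 to 2391 in WT (log2 fold change 0.17, adjusted p = 0.659).

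Gatad2a and Gatad2b bridge the deacetylase and ATPase modules of NuRD. Gatad2a had 2821, 3381, 4027 and 3542 in KO libraries 1 to 4 and 3374, 3389, 3272 and 3089 in WT libraries 1 to 4 and overlapped between the groups. Gatad2b had 458, 441, 431 and 441 in WT libraries 1 to 4 against 241, 406, 450.5 and 348 in KO libraries 1 to 4, where 3 of 4 WT values lay within 10 counts of each other and KO library 1 was far lower. Before the authors' correction for clone, WT libraries 1 to 4 of Gatad2b were less close, at 497.1, 401.6, 392.1 and 479.7. Its log2 fold change −0.33 ± 0.21 (SE) did not pass (adjusted p = 0.659). The deacetylases Hdac1 and Hdac2 did not differ beyond their spread. Hdac1 had 1694, 1362, 1132 and 1323 in KO libraries 1 to 4 and 1303, 1350, 1120 and 1277 in WT libraries 1 to 4, and Hdac2 had 2722, 3239, 2246 and 2909 in WT libraries 1 to 4 against 3867, 2938, 1792 and 2769 in KO libraries 1 to 4. Hdac2 was highest in KO library 1 and lowest in KO library 3, and its transcript has a GC content of 41.9%. Kdm1a, the histone demethylase that can join NuRD, ranged over 3064 to 3921 in KO and 3466 to 4061 in WT (log2 fold change −0.13).

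All 4 of the other CHD ATPases had a log2 fold change below 0, with a median of −0.37 (−0.22 without KO library 3, and −0.16 with the trends on GC content and length removed). Chd7, which binds enhancers and is mutated in CHARGE syndrome, had 940.3, 1192, 1125 and 921 in KO libraries 1 to 4 and 1949, 1399, 1524 and 1221 in WT libraries 1 to 4. The highest KO value, in library 2, lay just under the lowest WT value, in library 4. Means were 1045 ± 135 in KO and 1523 ± 310.0 in WT (SD, n = 4 each), a drop of 31.4% on the fitted scale (log2 fold change −0.55 ± 0.18 (SE), limma, adjusted p = 0.485, past the unadjusted threshold). Within days 3, 4 and 5 the log2 differences were −0.23, −0.44 and −0.41, and with the day as a block the gene fell by 0.36 (adjusted p = 0.227, limma). WT library 1, which has no KO library of its day, was the highest of all. The call was lost without KO library 4 (log2 fold change −0.43) or WT library 3 (−0.55), in clone E3 alone (−0.43), and with the trends removed (−0.38). In the 6 libraries of days 3, 4 and 5 it was present with the block and lost without it (−0.36 in both). Chd7 spans chr4:8690406-8867659, plus strand, 38 exons, transcript 10216 bases.

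Chd1, the ATPase tied to open chromatin and high transcription in mES cells, had 2858, 3142, 2551 and 2468 in WT libraries 1 to 4 against 2310, 2373, 1099 and 2172 in KO libraries 1 to 4. The 3 KO libraries other than library 3 lay close under the lowest WT library, and KO library 3 lay far below these. The log2 fold change −0.51 ± 0.28 (SE) was the third lowest of the 44 genes and did not pass (adjusted p = 0.619), and without KO library 3 it was −0.28. Chd1 lies at chr17:15704967-15772610, plus strand, 36 exons, transcript 7916 bases, with a GC content of 43.2%. Chd2 ranged over 1270 to 1914 in KO and 1764 to 2020 in WT, and Chd8 over 2233 to 3018 and 2826 to 3469, with log2 fold changes of −0.16 and −0.23.

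The ISWI group, too, lay below 0 in all 5 genes (median −0.39). Without KO library 3, 4 of the 5 did (median −0.20), and with the trends removed the median was −0.17. This group held the transcripts poorest in GC, Smarca1 at 39.5% and Smarca5 at 40.7%. Smarca5, the main ISWI ATPase of mES cells, had 1623, 1327, 394 and 1114 in KO libraries 1 to 4 and 1339, 1400, 1207 and 1268 in WT libraries 1 to 4. KO library 3 was far below all the others, whereas KO library 1 was the highest of all 8, and the interval of the log2 fold change was wide (−1.41 to 0.66). Without that library the log2 fold change of Smarca5 was 0.02, against −0.37 with it. Smarca1, the form typical of neurons, was scarce, with 80.8, 72.1, 56.5 and 57.2 in WT libraries 1 to 4 against 60.9, 51.7, 17.8 and 37.1 in KO libraries 1 to 4. Its log2 fold change of −0.77 was the lowest of the 44 genes (adjusted p = 0.598). It rested on 6 reads in KO library 3 and 34 to 111 reads elsewhere, and was −0.45 without that library. With the day as a block Smarca1 fell by 0.90 (adjusted p = 0.232), and with the trends removed by 0.50 (adjusted p = 0.506), both past the unadjusted threshold (limma).

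Bptf, the histone-reading subunit of NURF, which works with Smarca1 or Smarca5, had 3245, 4501, 3444 and 4149 in KO libraries 1 to 4 and 5187, 5412, 4916 and 4512 in WT libraries 1 to 4. KO library 2 came within 11 counts of the lowest WT library, and the means were 3834 ± 590.0 in KO and 5007 ± 387 in WT (SD, n = 4 each). The groups overlapped before the authors' correction for clone, where KO library 4 had 4549 and WT library 3 had 4516. The log2 fold change −0.39 ± 0.15 (SE) passed the unadjusted threshold (limma, adjusted p = 0.518). The call was lost without any of KO library 1 (log2 fold change −0.32), KO library 3 (−0.35), WT library 1 (−0.38), WT library 2 (−0.32) or WT library 3 (−0.40), in the 6 libraries of days 3, 4 and 5 with or without the block (−0.30 in both) and with the trends removed (−0.17). Bptf spans chr11:107033081-107132127, minus strand, 30 exons, transcript 12036 bases, the longest transcript of the 44. Baz1a, the partner of Smarca5 in ACF and CHRAC, had 1355, 1548, 1051 and 1289 in WT libraries 1 to 4 against 1251, 1262, 442 and 955 in KO libraries 1 to 4, with KO library 3 far below the rest, and a log2 fold change of −0.50 that was −0.20 without that library. Baz1b, the partner in WICH, had 3457, 3626, 2370 and 3359 in KO libraries 1 to 4 and 3682, 4123, 3216 and 3346 in WT libraries 1 to 4. On days 3, 4 and 5 the log2 differences of Baz1a were −0.29, −1.25 and −0.43, and those of Baz1b were −0.19, −0.44 and 0.01.

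**Figure D4:**
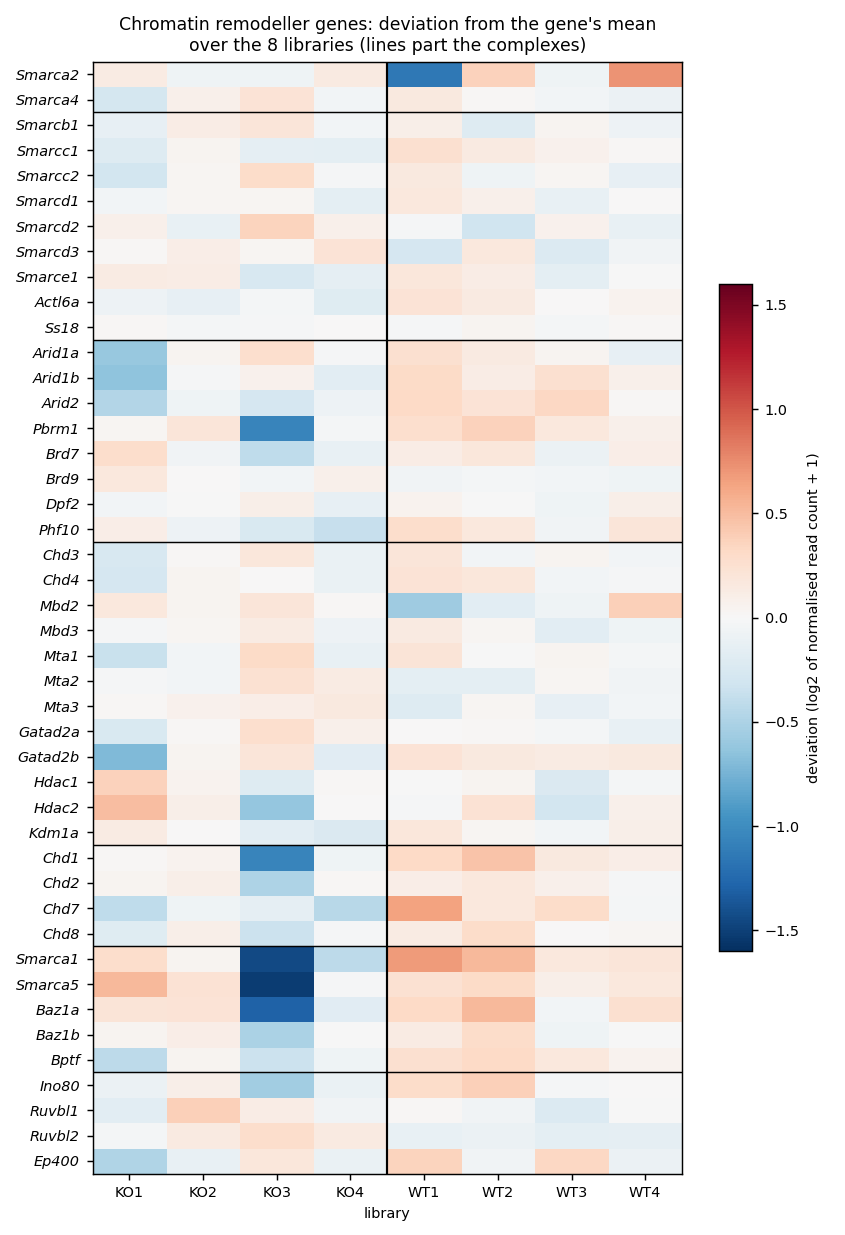
Deviation of each remodeller gene (rows, lines part the complexes) from its mean over the 8 libraries (columns) on the log2 scale, blue below and red above. KO library 3 holds the darkest blue cells, among them Smarca5, Smarca1 and Baz1a, and the SD of its 44 deviations was 0.48 against 0.099 to 0.29 in the other libraries.

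In the INO80 and TIP60-p400 complexes, the AAA+ ATPase Ruvbl2 was the gene with every KO library above every WT library. Ruvbl2 is shared by these complexes and was the most abundant of the 44 transcripts per kilobase in WT (2650 ± 48 normalised reads, SD, n = 4). Its counts were 6550, 7432, 8153 and 7393 in KO libraries 1 to 4 and 6158, 6266, 6004 and 6090 in WT libraries 1 to 4. The 4 WT values spanned under 300 counts, and the lowest KO value, in library 1, lay above them. This narrow WT spread holds only after the authors' correction for clone. Before it, WT libraries 1 to 4 had 5752, 6672, 6409 and 5684, and the lowest KO value, 6956 in library 1, still lay above them. Means of the deposited values were 7382 ± 656 in KO and 6129 ± 111 in WT (SD, n = 4 each), a rise of 20.1% on the fitted scale (log2 fold change 0.27 ± 0.11 (SE)) whose interval, −0.001 to 0.53, just reached 0 (limma, adjusted p = 0.55). In the 6 libraries of days 3, 4 and 5 the value was past the unadjusted threshold at 0.32, both without the block and with it (adjusted p = 0.238 with it), and with the trends on GC content and length removed it was 0.14 (adjusted p = 0.73). The gene lies at chr7:45421760-45438096, minus strand, 18 exons, transcript 2312 bases, with a GC content of 57.9%.

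Its partner Ruvbl1, with which it forms a mixed ring, had 552, 521, 468 and 539 in WT libraries 1 to 4 against 481, 706, 588 and 523 in KO libraries 1 to 4 and overlapped between the groups (log2 fold change 0.14, adjusted p = 0.79). Ino80, the ATPase that names its complex, had 1152, 1314, 834 and 1147 in KO libraries 1 to 4 and 1509, 1598, 1218 and 1236 in WT libraries 1 to 4, and it was lowest in KO library 3, without which the log2 fold change was −0.21 (log2 fold change −0.33 ± 0.19 (SE) with it, adjusted p = 0.64). Ep400, the ATPase of TIP60-p400, had 3989, 3015, 3922 and 2921 in WT libraries 1 to 4 against 2232, 2881, 3556 and 2907 in KO libraries 1 to 4. WT libraries 1 and 3 were high and WT libraries 2 and 4 lay near KO libraries 2 and 4, and the log2 fold change was −0.26 (adjusted p = 0.698).

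Exchange of paralogues is how these complexes differ between cell types, so the log2 ratio within a library was compared for 13 pairs. Such a ratio needs no scaling between libraries. The exact two-sided permutation test over the 70 assignments of 4 and 4 libraries cannot give less than p = 0.0286, and 2 of the 13 pairs reached it, Arid1a over Arid1b and Gatad2a over Gatad2b. None passed after adjustment over the 13 pairs, where the smallest adjusted p was 0.149 (Benjamini-Hochberg). The log2 ratio of Arid1a to Arid1b was 3.14, 3.16, 3.31 and 3.26 in KO libraries 1 to 4 and 3.06, 3.13, 2.90 and 2.90 in WT libraries 1 to 4. It was higher in every KO library, by 0.22 in the mean, and with the trends on GC content and length removed the difference was 0.13 (exact permutation p = 0.257).

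The log2 ratio of Gatad2a to Gatad2b was 3.55, 3.06, 3.16 and 3.34 in KO libraries 1 to 4 and 2.88, 2.94, 2.92 and 2.81 in WT libraries 1 to 4. The WT values lay within 0.13 of each other, and the KO mean was higher by 0.39, or by 0.21 with the trends removed (exact permutation p = 0.429). The narrow range of the WT ratios holds only after the authors' correction for clone. Before it, Gatad2b had 497.1, 401.6, 392.1 and 479.7 in WT libraries 1 to 4. Gatad2a had 3318, 3445, 3328 and 3033 there, and the WT ratios spread more widely. Smarca5 over Smarca1 was 4.71, 4.66, 4.40 and 4.87 in KO libraries 1 to 4 and 4.03, 4.26, 4.39 and 4.45 in WT libraries 1 to 4, a difference of 0.38 with overlapping groups (exact permutation p = 0.0571, adjusted p = 0.149) that was 0.38 with the trends removed as well. In KO library 3 this ratio rests on 6 reads of Smarca1. Before the authors' correction for clone, Smarca1 had 5.55 and Smarca5 412.4 there, against 17.8 and 394.4 after it. The ratio in KO library 3, the lowest of the KO libraries after the correction, was thus higher before it. Smarcc1 over Smarcc2 was 3.14, 3.06, 2.61 and 2.91 in KO libraries 1 to 4 and 3.16, 3.26, 3.09 and 3.20 in WT libraries 1 to 4, lower by 0.24 in the mean (exact permutation p = 0.0571), and with the trends removed this was the single pair to reach p = 0.0286, at a difference of −0.11.

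For the pair of BAF ATPases the groups overlapped. Smarca4 over Smarca2 was 5.80, 6.36, 6.49 and 6.02 in KO libraries 1 to 4 and 7.51, 5.86, 6.24 and 5.41 in WT libraries 1 to 4, with the WT values on both sides of the KO values (difference −0.088, exact permutation p = 0.914). Per kilobase, Smarca4 exceeded Smarca2 by 65.0-fold in WT and 68.2-fold in KO, Smarcc1 exceeded Smarcc2 by 7.15-fold and 5.99-fold, and Smarcd1 exceeded Smarcd3 by 24.0-fold and 20.1-fold. Thus Smarca4 and Smarcc1, the esBAF forms, were the more abundant of their pairs in both genotypes. Among the Smarcd forms it was Smarcd2, at 845 in WT and 971 in KO, above Smarcd1 at 583 and 555. In NuRD, Chd4 exceeded Chd3 by 19.0-fold in WT and 17.8-fold in KO, and Mbd3 exceeded Mbd2 by 7.24-fold and 6.53-fold. For Ruvbl1 over Ruvbl2, Hdac1 over Hdac2, Brd9 over Brd7, Baz1a over Baz1b, Mta2 over Mta1, Chd4 over Chd3, Mbd3 over Mbd2 and Smarcd1 over Smarcd3, the groups overlapped and the exact permutation p was 0.0571 to 0.571. These tests do not use the pairing by day. Within days 3, 4 and 5, 5 of the 13 ratios were higher in KO on all 3 days and 3 were lower, and a sign-flip test over 3 days could not give less than p = 0.25 (exact). Brd9 over Brd7, for instance, was higher by 0.28, 0.32 and 0.37 within these days.

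**Figure D5:**
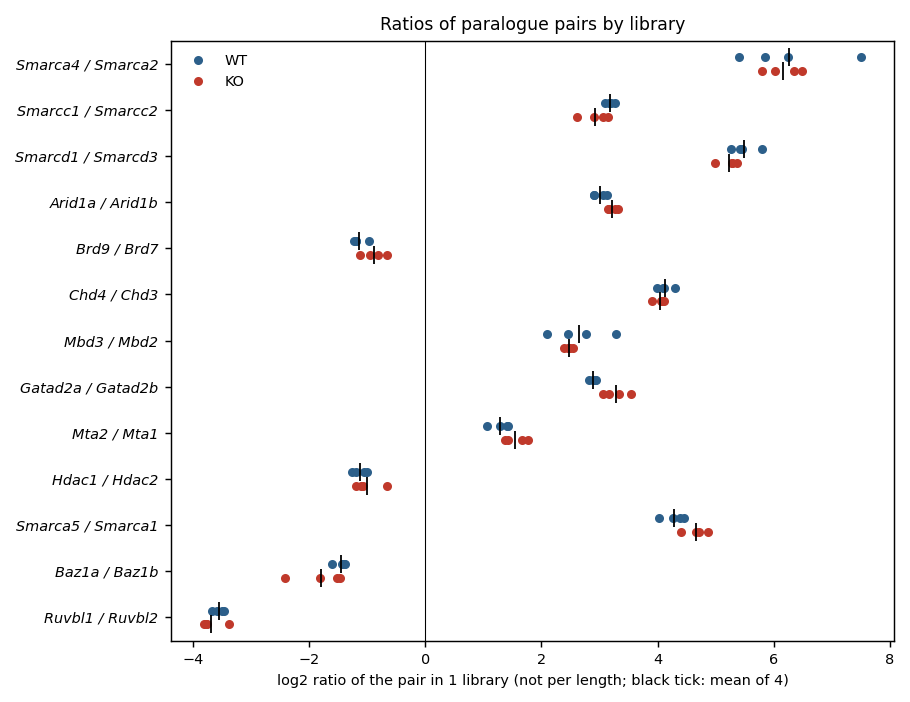
Log2 ratio of the normalised read counts of 13 paralogue pairs in each library (x axis, not corrected for length), WT in blue and KO in red, with black ticks at the means of 4. The KO points lie to the right of all WT points for Arid1a over Arid1b and Gatad2a over Gatad2b, and the groups overlap in the other 11 pairs.

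Among 66 further remodeller genes in the table, 1 rose (1.52%, against 4.62% of all transcripts) and 4 fell (6.06%, against 4.46%) at an unadjusted p under 0.05, 26 had a log2 fold change above 0 and 40 below, and the median was −0.057. With the day as a block, 8 of the 66 rose (12.1%, against 9.92% of all transcripts) and 9 fell (13.6%, against 9.26%). Bcl11a, a zinc finger protein found with BAF, had 27.1, 24.1, 25.6 and 24.4 in KO libraries 1 to 4 and 14.8, 19.8, 6.67 and 13.6 in WT libraries 1 to 4. All 4 KO libraries lay higher, at a low level, with a log2 fold change of 0.95 (limma, adjusted p = 0.46). Baz2b, a bromodomain partner of ISWI, had 1286, 1037, 1273 and 1056 in WT libraries 1 to 4 against 742, 781, 454 and 638 in KO libraries 1 to 4. It was lower in every KO library, by a log2 fold change of −0.85 (limma, adjusted p = 0.445), and remained at −0.66 (adjusted p = 0.382) with the trends removed.

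Cecr2, the ISWI partner of the CERF complex, had 1103, 1220, 1333 and 1092 in KO libraries 1 to 4 and 2115, 1529, 1853 and 1457 in WT libraries 1 to 4. The groups did not overlap (log2 fold change −0.55, limma, adjusted p = 0.457), and the call was lost without KO library 4 (−0.47) and with the trends removed (−0.34). Chd1l, a PARP-activated remodeller, had 981, 823, 794 and 830.3 in WT libraries 1 to 4 against 726, 728, 712 and 592 in KO libraries 1 to 4, also without overlap (log2 fold change −0.32, limma, adjusted p = 0.541). Its call was lost in the 6 libraries of days 3, 4 and 5 with or without the block (−0.27 in both) and without any single library other than WT library 3, with a value of −0.16 without KO library 4. Epc1, a scaffold of TIP60, had 293, 344, 254 and 274 in KO libraries 1 to 4 and 371, 456, 310.2 and 429 in WT libraries 1 to 4, where KO library 2 reached into the WT range (log2 fold change −0.42, limma, adjusted p = 0.543). Its call was lost with the trends removed (−0.38) and without any single library other than KO library 2 or WT library 3, with a value of −0.29 without WT library 2. None of the 5 passed the adjustment over all transcripts.

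Whether the 2 clones differed in their response was tested with an interaction term. None of the 44 had an unadjusted p under 0.05 for that term, against 2.59% of all transcripts, and the smallest was 0.15 (limma). Clone 1 holds a single KO library, so the precision of this test rests on it.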

How the data were processed

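RNA-seq of 8 libraries was made with a poly(A) kit that does not mark strand. Per the labels and methods, the authors used CASAVA 1.8, Bowtie2 2.2.1 with TopHat2, mm10, RefSeq counts in Partek 6.6, DESeq2 normalisation, a batch correction, a floor at 1, and a filter that kept transcripts with a group mean of 10 or more. The deposited values are this normalised signal, called normalised read counts here.

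From these, log2(value + 1) was fitted with limma 3.58.1 (R 4.3.3) on genotype and clone over all 13558 transcripts with Benjamini-Hochberg adjustment, and fold changes are on that scale, which understates those of low genes. A gene was called at an unadjusted p under 0.05. The table fits whole reads times a library factor plus a shift of opposite sign in the clones, which gave unique reads for 99.43% of transcripts and returned 98.45% of values within 1 unit of the last digit. On data simulated for KO against WT at a fixed dispersion of 0.02, limma called 187 of 200 transcripts changed by a log2 of 1 among 13304, and 16 others, at an adjusted p under 0.05, and 5.11% of unchanged transcripts had an unadjusted p under 0.05. The simulation held no trend on GC content or length and no effect of day, so it checks the fit and gives no power for these libraries.

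Transcript length, GC content and positions came from the longest protein-coding GENCODE transcript of each symbol on GRCm38, found for 13461 of 13558 transcripts and all 44 remodeller genes. Trends were removed per library with splines of 5 degrees of freedom for each of length and GC content, a step that would also take out a genotype difference tied to them. Levels per kilobase divide by that length. The day labels pair libraries of days 3, 4 and 5. Same-day deviations correlated at 0.42, 0.54 and −0.23 in the deposited values and at 0.56, 0.65 and 0.50 with the clone correction undone. Genes given with all 8 values were Trim71, called or non-overlapping genes, the 3 highest and 3 lowest changes, the paralogue pairs and the catalytic subunits Smarca4, Smarca2, Chd4, Smarca5, Ino80 and Ep400, and of the further genes those called. The genes and lists were chosen with earlier results of these data known. Alternatives were another pseudocount (10), filters on low values, other scalings and fits, and each library left out.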

Additional observations from a re-analysis of the deposited data

Results flagged for a closer look

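Among 90 groups of 4 libraries (44 remodeller genes and Trim71 in 2 groups), 2 had a library whose gap to the nearest other exceeded the 95% critical value of Dixon's test, and chance flags about 4.5 of 90. Both were in KO library 3. Chd1 had 1099 there, against 2172 to 2373 in the other KO libraries. Chd2 had 1270 there, against 1822 to 1914. The GC content of their transcripts is 43.2% and 48.0%, and the deviations of remodeller genes correlated with GC content at 0.80 in this library. The part of base composition in these values was not tested.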

How the results depend on the processing

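Trim71 was lower in KO and past the unadjusted threshold under all 23 alternatives (log2 fold change −2.70 to −1.81 with a library left out), no remodeller gene passed an adjusted p of 0.05 under any of them, and the median log2 fold change of the 44 genes stayed below 0, at −0.16 to −0.078 with a library left out and −0.13 to −0.063 otherwise. The number called at an unadjusted p, 3, (6.82%, against 9.09% of all transcripts in either direction), was 7 without the clone term (15.9%, against 14.0%), 7 on untransformed values (15.9%, against 9.73%), 5 with the replicate block by day (11.4%, against 19.2%), 1 in clone E3 alone (2.27%, against 2.77%; an alternative chosen after seeing the data, as was the set of 6 libraries without a block), and 1 to 5 with a library left out, lowest without WT library 3 (2.27%, against 9.56%) and highest without KO library 1 (11.4%, against 10.2%). On the recovered reads, voom called 1240 of 13304 transcripts at an unadjusted p, 4 of them remodeller genes, and 0 at an adjusted p. The number past the 1.5-fold criterion, 0 (0%, against 4.25% of all transcripts), was 2 under the block (4.55%, against 7.49%), 1 where the clone correction was undone as well, and 0 to 1 with a library left out (1 without KO library 1 or 2 or WT library 2 or 4). For this criterion the share over all transcripts was not computed with the correction undone or a library left out. The 7 genes without overlap were 5 with the clone correction undone, where the share over all transcripts was not computed. With the trends on GC content and length removed they were 2, both lower in KO (4.55%, against 4.22% of all transcripts). With a library left out they were 7 to 12, with 12 found without KO library 2 and 11 without KO library 3. Of the 11, 9 were lower (20.5%, against 7.94% of all transcripts) and 2 higher (4.55%, against 8.63%). With all 8 libraries, the shares over all transcripts were 4.62% and 5.48%. Leaving out KO library 3 thus raised the share over all transcripts as well. Without KO library 2 or any other single library that share was not computed, so the counts found there cannot be set against it. Of the paralogue pairs, 2 reached the smallest exact permutation p of 0.0286 and 1 did with the trends removed. The 5 further remodeller genes called (7.58%, against 9.09% of all transcripts) were 17 under the replicate block (25.8%, against 19.2%), 16 where the correction was also undone (24.2%, against 18.9%), 12 where the trends were also removed (18.2%, against 16.1%), 1 in clone E3 alone (1.52%, against 2.77%), and 3 to 6 with a library left out (4.55% to 9.09%, against 3.26% to 10.7%). In the 6 libraries of days 3, 4 and 5, the replicate block changed the calls on Arid2, Phf10, Chd7, Smarca1, Brd7 and Baz1a, and those on Bptf and Ruvbl2 were the same with and without it. Of the 44 genes, 21 changed sign under 1 or more alternatives, none of them among the 7 called or non-overlapping genes, and Smarca5 had the largest value of the 21 (log2 fold change −0.37, and 0.02 without KO library 3). The 7 were picked with every KO value on the same side of every WT value. Alternatives that only leave out libraries could therefore not change their sign. Mbd2, among the 3 highest, was −0.11 with the block and the trends removed; the cause was not tested. The interaction with clone could not be fitted without KO library 4. Depth limits Smarca1, Smarca2 and Smarcd3, with under 100 reads in 1 or more libraries.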
